A study of Mus musculus with 12 samples.

Results

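Haem synthesis and iron uptake were followed through 9 genes. They encode 7 enzymes of the haem pathway (Alas2, Alad, Uros, Urod, Cpox, Ppox and Fech), the transferrin receptor Tfrc and the mitochondrial iron importer Slc25a37. A probe set is the group of array features read out as a single value. Every probe set whose only gene symbol in the platform table was that of a member was taken, which gave 24 of the 45101 probe sets on the array, for 9 of 18193 genes with a probe set of their own. Of these, 21 entered the tests, and the other 3 are array control probe sets for Tfrc, given as values only. A probe set that names both Slc25a37 and another gene was left out.

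Expression was measured on 12 arrays from mouse embryos at embryonic day 8.0, of a line with mixed C57BL/6 and FVB background carrying an EYFP (yellow fluorescent protein) reporter labelled ER71 EYFP. The 4 groups of 3 arrays were wild-type EYFP-positive, wild-type EYFP-negative, ER71 mutant EYFP-positive and ER71 mutant EYFP-negative cells, called positive and negative cells here. All groups share the reporter line, dissociation with trypsin and sorting by flow cytometry. ER71, now named Etv2, encodes an ETS-family transcription factor needed for blood and endothelium. The sources used here do not give the sequences that drive EYFP, the mutated part of Etv2, or whether the replicates are separate embryos or pools. The p-values therefore measure the spread among these arrays alone, and that spread may in part be technical.

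Haem is an iron-containing ring that carries oxygen in haemoglobin. Its synthesis starts in the mitochondrion, where 5-aminolevulinate synthase joins glycine and succinyl-CoA, passes through the cytosol, and ends in the mitochondrion, where ferrochelatase inserts iron. Red cell precursors use their own form of the first enzyme, Alas2, while most other cells use Alas1. Iron reaches these precursors bound to transferrin, is taken in by the transferrin receptor and enters the mitochondrion through mitoferrin. The first red cells of the mouse embryo arise in the yolk sac shortly before the stage sampled here.

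Etv2 read 10.70 to 11.36 (log2 RMA values, the unit of all levels given) on the wild-type positive arrays and 7.24 to 7.85 on the other 9. The probe set may lie outside the mutated part and is no check of the mutation itself. The Y-linked gene Eif2s3y was high on the 2 wild-type arrays that carry the number 1 (10.81 and 11.23, against 4.11 to 4.53 on the other 10). The gene Xist was low on these same 2 arrays (10.33 and 8.19, against 13.36 to 13.98 on the other 10). On these values the 2 arrays are not technical repeats of the other wild-type arrays. The part of the 2 arrays in the results was not tested, but values without them are given where they changed a call. The array medians were 6.98 to 7.06 and the lower quartiles 5.62 to 5.69. Signal over background is not given, so the size of a difference from a level below the lower quartile is uncertain. The number of arrays limits the precision.

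The sort comparison within wild types asks which haem and iron genes go with the reporter. Alas2, Fech, Slc25a37, Cpox, Alad, Uros and a probe set of Ppox were higher in positive cells, and Urod and Tfrc did not pass the test. Of the 21 probe sets, 10 were higher at an adjusted p under 0.05 and 0 lower, against 2.76% higher and 1.72% lower among all probe sets (4.48% in either direction). The median difference of the 21 was 0.59 log2, against -0.01 over all probe sets. Leaving out wild-type negative array 3 left 6, and leaving out both wild-type arrays numbered 1 also left 6. The 6 probe sets called under every alternative setting in which they were tested belong to 4 genes, Alas2, Fech, Cpox and Slc25a37. The levels come from whole sorted fractions, where fewer cells of a type and less RNA per cell cannot be told apart.

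**Figure D1:**
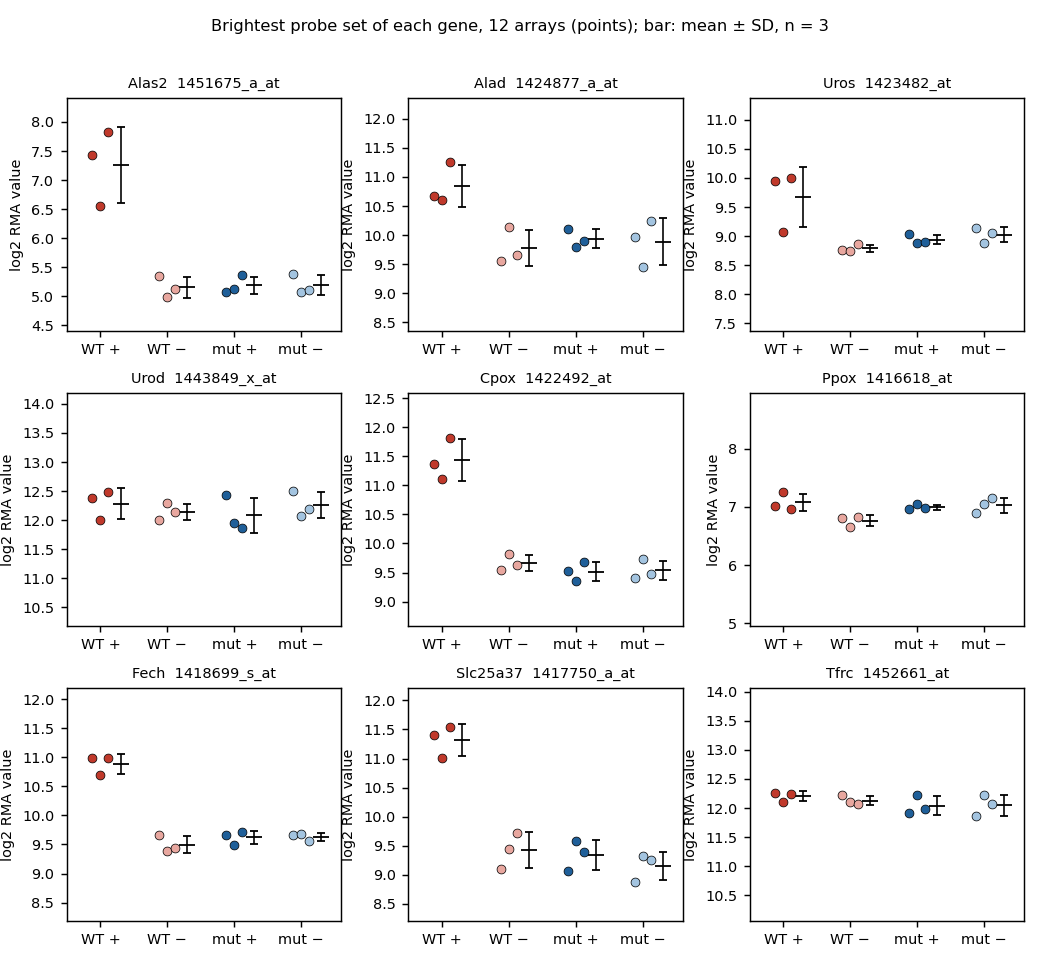
Log2 RMA values of the brightest probe set of each of the 9 genes on the 12 arrays (points; WT, wild type; mut, mutant; + and −, EYFP-positive and EYFP-negative cells), with the mean ± SD of each group of 3 arrays beside them. All panels span the same range of log2 values; Alas2, Alad, Cpox, Fech and Slc25a37 have the 3 wild-type positive arrays above the other 9, while Urod and Tfrc overlap between all groups.

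Alas2, the enzyme that sets the rate of haem synthesis in red cell precursors, read 7.43, 6.55 and 7.83 on wild-type positive arrays 1, 2 and 3. It read 5.35, 4.99 and 5.13 in wild-type negative cells, 5.08, 5.12 and 5.36 in mutant positive cells, and in mutant negative cells 5.39, 5.07 and 5.12. No other array reached the lowest of the wild-type positive values, and the other 9 lay below the lower quartiles. Within wild types Alas2 was 4.32-fold higher in positive than negative cells (2.11 ± 0.26 log2 ± SE, with n = 3 in each; limma adjusted p = 0.000721). Its only probe set here is the single reading of this gene. Alas1, the form used by most tissues, read 7.64 to 8.15 in wild-type positive and 7.90 to 8.13 in wild-type negative cells and differed by -0.16 ± 0.21 log2 (adjusted p = 0.832).

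The intermediate steps were uneven. Alad, which condenses aminolevulinate into porphobilinogen, read 10.68, 10.61 and 11.26 in wild-type positive and 9.55, 10.13 and 9.66 in wild-type negative cells at its brighter probe set. The groups did not overlap, and the difference was 1.07 ± 0.24 log2 (adjusted p = 0.027). Alad did not pass on leaving out wild-type positive array 3 (0.0889), without wild-type negative array 1 (0.114) or 3 (0.103), and without both wild-type arrays numbered 1 (0.158). It also missed the threshold when only the groups compared were fitted (0.051). The dimmer Alad probe set differed by 0.40 ± 0.16 (adjusted p = 0.265), and passed with the positive and negative arrays of a number as a block (0.0481). Uros, which closes the porphyrin ring, read 9.95, 9.07 and 10.00 in wild-type positive and 8.76, 8.75 and 8.86 in wild-type negative cells. Array 2 lay close to the negative cells and the other two well above. The Uros difference of 0.89 ± 0.20 (adjusted p = 0.0331) did not pass on leaving out wild-type positive array 1 (0.118) or 3 (0.109) or negative array 1 (0.109), 2 (0.113) or 3 (0.0835), and was 0.73 without both wild-type arrays numbered 1 (adjusted p = 0.263). Nor did the brighter Uros probe set pass when only the groups compared were fitted (0.121). A dim Uros probe set differed by 0.13 ± 0.10 (adjusted p = 0.656).

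Urod, which trims the side chains of the ring, did not pass at either probe set. Its brighter one read 12.37, 11.99 and 12.49 in wild-type positive and 12.01, 12.29 and 12.14 in wild-type negative cells. The groups overlapped, and the 95% confidence interval of the difference ran from -0.26 to 0.54 log2. The dimmer one differed by -0.09 ± 0.24 (adjusted p = 0.933).

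Cpox, which makes protoporphyrinogen between the outer and inner mitochondrial membranes, was among the larger differences. Its brightest probe set read 11.38, 11.12 and 11.82 in positive and 9.54, 9.82 and 9.63 in negative cells of wild types. The gap between groups exceeded the spread within either, and the difference was 3.42-fold (1.77 ± 0.17 log2, adjusted p = 0.00013). The next Cpox probe set differed by 1.43 ± 0.29 (adjusted p = 0.0179), which missed the threshold on leaving out wild-type positive array 2 (0.0508) or 3 (0.068), negative array 1 (0.0744), 2 (0.0576) or 3 (0.06), and without both arrays numbered 1 (0.106). The dimmest Cpox probe set differed by 0.59 ± 0.19 (adjusted p = 0.141) and, with the replicate number as a block, by the same amount with an adjusted p of 0.0333.

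Ppox, which oxidises protoporphyrinogen, depended on the probe set. The brightest read 7.02, 7.25 and 6.96 in wild-type positive and 6.81, 6.66 and 6.82 in wild-type negative cells and did not pass (0.31 ± 0.11, adjusted p = 0.152). Another read 7.50, 7.81 and 7.02 against 6.97, 6.63 and 6.35 and was higher by 0.80 ± 0.20 (adjusted p = 0.0447). These arrays were separated by only a small gap, and the call was lost under 12 of 22 alternatives, at adjusted p up to 0.167. Among them were the removal of wild-type positive array 1 (0.125) or 2 (0.128), of negative array 2 (0.138) or 3 (0.167), and of any mutant array (0.0567 to 0.0654). The removal of both wild-type arrays numbered 1 was another (0.0969), as was the fit of only the groups compared (0.144). The third Ppox probe set, which lies below the lower quartiles in all wild-type arrays, differed by 0.05 ± 0.18 (adjusted p = 0.943).

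Fech, the ferrochelatase that inserts iron and completes haem, was higher at 3 of its 4 probe sets. The brightest read 10.99, 10.69 and 10.99 in wild-type positive and 9.66, 9.38 and 9.45 in wild-type negative cells, a difference of 1.39 ± 0.12 log2 (adjusted p = 3.83e-05). Another read 10.28, 10.18 and 10.65 against 8.14, 8.19 and 8.20, which is 4.57-fold (2.19 ± 0.21, adjusted p = 0.000128). The third differed by 1.75 ± 0.15 (adjusted p = 4.01e-05). The fourth overlapped between groups (0.40 ± 0.16, adjusted p = 0.238). The called differences thus ranged from 1.39 to 2.19 log2 within this gene.

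The iron importers were read at 1 probe set for the mitochondrion and 3 tested probe sets for the cell surface. Slc25a37, or mitoferrin 1, the mitochondrial iron importer of red cell precursors, read 11.41, 11.01 and 11.54 in wild-type positive and 9.11, 9.44 and 9.72 in wild-type negative cells. No arrays overlapped, and it was 3.72-fold higher (1.90 ± 0.20 log2, adjusted p = 0.00026). Its relative Slc25a28, mitoferrin 2, which serves other tissues, differed by 0.50 log2 (adjusted p = 0.206). Tfrc, which takes up transferrin-bound iron in red cell precursors and in dividing cells generally, read 12.27, 12.11 and 12.25 against 12.22, 12.11 and 12.06 at its brightest probe set. The groups overlapped, and the difference of 0.08 had a 95% confidence interval from -0.18 to 0.34 log2. The next Tfrc probe set read 9.95, 10.20 and 9.86 against 9.80, 9.71 and 8.99, with no overlap, and differed by 0.50 ± 0.35 (95% confidence interval -0.26 to 1.27, adjusted p = 0.598). The dimmest tested one overlapped and differed by 0.21 ± 0.51 (adjusted p = 0.924).

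**Figure D2:**
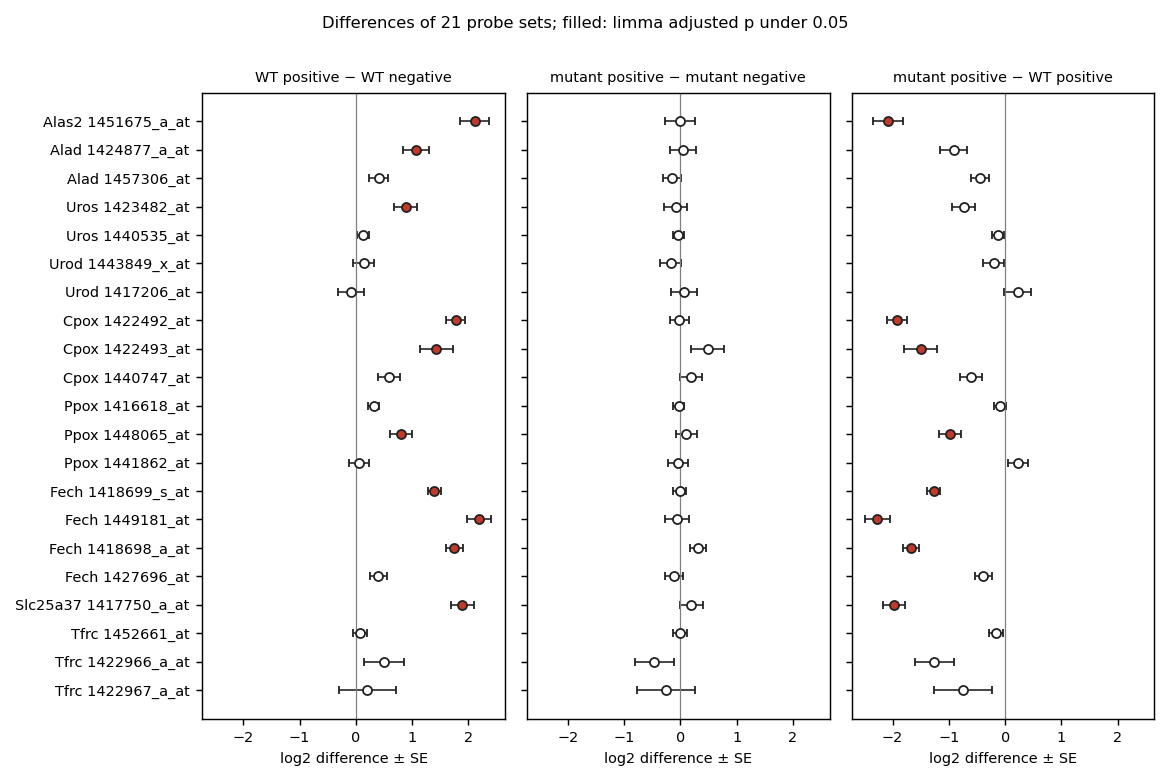
Log2 differences ± SE of the 21 tested probe sets in 3 comparisons (n = 3 arrays per group), ordered by gene and then by brightness; filled points have a limma adjusted p under 0.05. Filled points lie to the right for positive minus negative cells in wild types (10 probe sets) and to the left for mutant minus wild-type positive cells (8), and there are 0 in the mutant sort comparison. The outer panels share the wild-type positive arrays.

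The upstream sequences of 3 genes called in wild types are shown because they are the windows searched that hold GATA words, the letters read by the GATA factors of red cell genes. The sequences are RefSeq windows (assembly GRCm38.p6) of 250 bases ending just before a listed transcription start, written 5′ to 3′ along the gene. Capitals mark, on either strand, the GATA words AGATAA and AGATAG and also TGATAA and TGATAG, and CCACCC, which is of the Krüppel-like factor type. Alas2 lies at chrX:150547167-150547416 (plus strand), Cpox at chr16:58669958-58670207 (plus strand) and the downstream listed start of Uros at chr7:133702501-133702750 (minus strand).
Alas2: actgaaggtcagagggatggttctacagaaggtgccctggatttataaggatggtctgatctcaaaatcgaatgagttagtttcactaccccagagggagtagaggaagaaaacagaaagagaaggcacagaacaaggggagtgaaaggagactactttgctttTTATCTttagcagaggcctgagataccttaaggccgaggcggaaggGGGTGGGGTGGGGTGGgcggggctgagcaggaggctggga
Cpox: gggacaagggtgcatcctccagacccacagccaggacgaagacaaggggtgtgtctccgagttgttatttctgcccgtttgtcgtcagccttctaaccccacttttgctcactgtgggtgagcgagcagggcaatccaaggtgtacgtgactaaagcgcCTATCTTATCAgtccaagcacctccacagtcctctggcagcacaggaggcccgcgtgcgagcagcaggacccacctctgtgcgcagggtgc
Uros: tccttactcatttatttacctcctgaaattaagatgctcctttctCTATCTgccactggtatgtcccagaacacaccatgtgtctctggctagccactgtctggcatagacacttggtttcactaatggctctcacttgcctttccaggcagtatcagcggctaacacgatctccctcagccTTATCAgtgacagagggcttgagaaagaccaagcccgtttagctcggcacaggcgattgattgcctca

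The Alas2 window holds 1 GATA word that begins 86 bases before the start and 3 overlapping CCACCC words, read on the opposite strand, that begin 40 to 30 bases before it. Cpox has 2 overlapping GATA words at 91 and 86 bases. Uros has 2 at 205 and 68 bases before its downstream start and 0 before its upstream start. Of 32851 listed windows, 26.5% hold a GATA word, 28.1% CCACCC and 19.7% the ETS-type word GGAAGT. Fech and Slc25a37 were not searched. Windows of Alad and Ppox, which were also called in wild types, held 0 GATA words, as did those of Urod and Tfrc. GGAAGT was found once each in the windows of Urod and of a Tfrc start. That Tfrc window also holds 3 CCACCC words on the opposite strand, the farthest 186 and the nearest 6 bases before the start. AGATAA alone is in 9.99% of windows and, of those shown, only in that of Alas2. It was searched before the other GATA words, which were added after these sequences had been seen. A match is a description of letters and not of binding, and the arrays do not tell the starts apart.

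How the reporter-positive cells of mutants differ from those of wild types was examined next. The wild-type positive arrays are the same as in the previous comparison, so the results are not independent of it. Fech, Cpox, Slc25a37 and Alas2 were lower in mutants, with a probe set of Ppox. Of the 21 probe sets, 8 were lower and 0 higher, against 2.34% lower and 2.08% higher among all probe sets (4.42% in either direction). The median difference was -0.75 log2, against -0.01 over all. The 6 probe sets called under every alternative in which they were tested again belong to 4 genes.

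Alas2 fell by 2.08 ± 0.26 log2 (limma, adjusted p = 0.001) and was 4.23-fold lower. Slc25a37 read 9.06, 9.58 and 9.39 in mutant positive cells, below every wild-type positive array, and fell by 1.97 ± 0.20 (adjusted p = 0.000226). Cpox read 9.52, 9.35 and 9.69 at its brightest probe set and fell by 1.92 ± 0.17 (adjusted p = 8.48e-05), and the next probe set differed by -1.50 ± 0.29 (adjusted p = 0.0152). That second Cpox call did not hold on leaving out wild-type positive array 3 (0.0577) and when only the groups compared were fitted (0.0847).

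Fech read 9.67, 9.50 and 9.71 in mutant positive cells at its brightest probe set, all below the wild-type positive arrays. It fell by 1.27 ± 0.12 there (adjusted p = 9.22e-05), and the differences at 2 others were -2.27 ± 0.21 and -1.67 ± 0.15. The fourth Fech probe set differed by -0.39 ± 0.16 (adjusted p = 0.23). The Ppox probe set higher in wild-type positive cells fell by 0.99 ± 0.20 (adjusted p = 0.0163), and was 1.98-fold lower. With array 1 of the wild-type positive cells or array 3 of the mutant positive cells left out, the difference was -0.96 and -0.95, and the adjusted p 0.0516 and 0.0534.

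Alad read 10.11, 9.79 and 9.90 in mutant positive cells and did not pass, though no array overlapped with wild-type positive cells (-0.91 ± 0.24, adjusted p = 0.0569). It passed under 6 of 23 alternatives, among them the removal of mutant negative array 2 (0.0344) or 3 (0.0499). Uros read 9.03, 8.89 and 8.90 and differed by -0.74 ± 0.20 (adjusted p = 0.0751). Without wild-type positive array 2 the Uros difference was -1.04 (adjusted p = 0.000429). Urod differed by -0.20 ± 0.18 at its brighter probe set (adjusted p = 0.629).

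Tfrc differed by -0.16 ± 0.12 at its brightest probe set (adjusted p = 0.538). Its next probe set read 9.95, 10.20 and 9.86 in wild-type positive and 8.76, 9.32 and 8.15 in mutant positive cells. These arrays did not overlap, and the difference was -1.26 ± 0.35 (adjusted p = 0.0728), which passed without mutant positive array 2 (0.0464) or mutant negative array 2 (0.0371) and with the replicate number as a block (0.0132). The probe sets of Tfrc thus disagreed in size.

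The 3 control probe sets of Tfrc lie at its 3′ end, middle and 5′ end. The 3′ control read 8.83, 8.94 and 8.74 in wild-type positive, 8.49, 8.60 and 8.11 in wild-type negative, 7.91, 8.27 and 8.04 in mutant positive and 7.99 to 8.60 in mutant negative cells. Wild-type positive arrays were highest. The 5′ control read 5.03 to 6.10 on all 12 arrays, around the lower quartiles (5.62 to 5.69), with all groups overlapping. The 3′ minus 5′ gap depends on RNA length and labelling and, with so dim a 5′ reading, also on the Tfrc level. It was 3.45 ± 0.47 log2 (SD, n = 3) in wild-type positive, 2.87 ± 0.41 in wild-type negative, 2.44 ± 0.43 in mutant positive and 2.79 ± 0.09 in mutant negative cells. Its part in the differences between groups was not tested. Mutant positive array 3 read 6.11 at the dimmest regular Tfrc probe set, while arrays 1 and 2 of that group read 8.19 and 8.54. At the middle control it read 5.98, and the other 11 arrays at least 6.61.

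**Figure D3:**
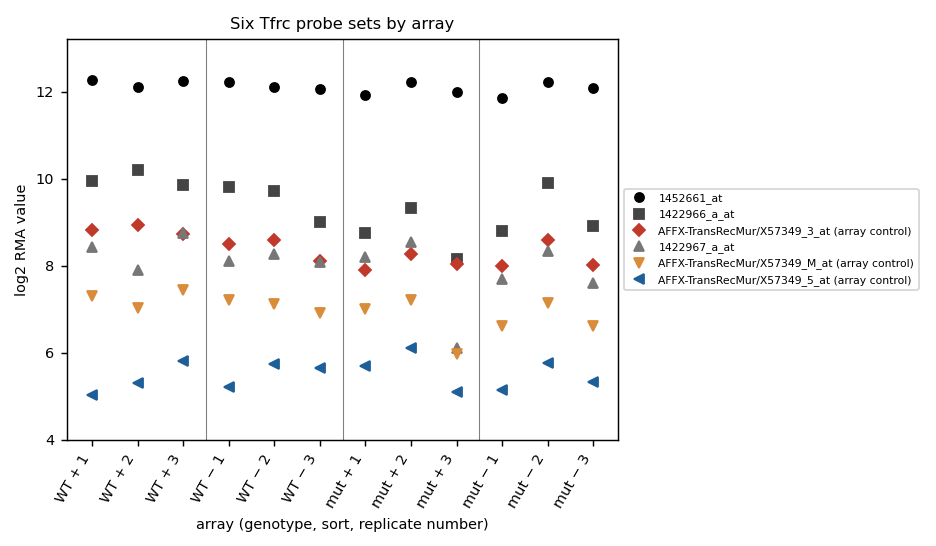
Log2 RMA values of the 6 Tfrc probe sets on each of the 12 arrays (WT, wild type; mut, mutant; + and −, EYFP-positive and EYFP-negative cells), with the 3 array controls for the 3′ end, the middle (M) and the 5′ end marked in the legend. The brightest probe set stays between 11.86 and 12.27, while mutant positive array 3 drops to 6.11 and 5.98 at a dimmer probe set and at the middle control.

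Between mutant positive and mutant negative cells, 0 of the 21 probe sets passed, and 0 had an unadjusted p under 0.05. Among all probe sets 2.62% passed in this comparison with limma (1.55% higher and 1.07% lower), 1181 in number, and 1848 with the positive and negative arrays of a number as a block, where still 0 members passed. Alas2 differed by -0.01 log2 (95% confidence interval -0.58 to 0.57), the brightest probe set of Fech by -0.01 (-0.27 to 0.25), of Cpox by -0.02 (-0.40 to 0.37) and of Slc25a37 by 0.19 (-0.26 to 0.64). These intervals lie below the wild-type differences of the same genes. Over the 21 probe sets the differences ran from -0.46, at a Tfrc probe set, to 0.48, at a Cpox probe set.

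Between mutant and wild-type negative cells, 0 of the 21 passed, and 0% of all probe sets did. At an unadjusted p under 0.05 there were 1 of the 21 and 2119 of all 45037. The members differed by -0.55 to 0.32 log2.

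The difference between genotypes of the positive-negative difference was itself tested. It was below 0 and past the threshold for 6 of the 21 probe sets and above 0 for 0, against 0.893% below and 0.380% above 0 among all (1.27% in either direction). These were 3 of Fech (-2.26 ± 0.30, -1.44 ± 0.21 and -1.40 ± 0.16 log2), Cpox (-1.79 ± 0.25), Alas2 (-2.12 ± 0.37, adjusted p = 0.0172) and Slc25a37 (-1.70 ± 0.29, adjusted p = 0.0144). Without both wild-type arrays numbered 1, Alas2 (0.0799) and Slc25a37 (0.0806) did not pass. Alas2 also missed the threshold without wild-type negative array 2 (0.0602) or 3 (0.0548) or mutant positive array 2 (0.0503). Alad, Uros, Urod, Ppox and Tfrc did not pass here, the nearest being Uros at -0.97 ± 0.29 (adjusted p = 0.203). Without wild-type positive array 2, Uros passed (-1.27, adjusted p = 0.00136). The second Cpox probe set (-0.95, adjusted p = 0.488) passed with the positive and negative arrays of a number as a block (0.0385).

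In order of mean level, wild-type positive cells were highest for all 9 genes at the brightest probe set. The share of all genes with wild-type positive cells highest was not counted. For Urod (12.29 against 12.08 to 12.26), Tfrc (12.21 against 12.04 to 12.13) and Ppox (7.08 against 6.76 to 7.03) the gap was small. The other 3 groups followed, between 5.16 and 5.19 for Alas2, 9.52 and 9.66 for Cpox, 9.50 and 9.63 for Fech and 9.15 and 9.42 for Slc25a37. Their arrays overlapped for each of these 4 genes, so no order is given among them. The other 3 groups were likewise not separated for Alad (9.78 to 9.94) by any test. Wild-type positive cells were not highest at every dimmer probe set. At that of Urod they were lowest (9.23 against 9.31 to 9.45). At the dimmest of Ppox (5.07) mutant positive (5.30) and mutant negative cells (5.34) were higher.

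Most erythroid genes differed in the same directions as the called members. Of 12 primitive erythroid genes measured, 9 were higher in wild-type positive than negative cells and 9 were lower in mutant than wild-type positive cells, 0 in the opposite direction, against 3.84% higher and 2.65% lower in the former comparison and 3.11% lower and 3.16% higher in the latter, over the brightest probe set of every gene. The median differences were 3.08 and -3.24 log2, against -0.02 and 0.01 over all genes. Klf1, a transcription factor of red cell genes, read 9.95, 9.63 and 10.12 in wild-type positive cells and 6.21 to 6.73 on the other 9 arrays. Gata1, a GATA factor of red cell precursors, read 6.64, 6.93 and 7.69, against 5.30 to 5.74. Slc4a1, the red cell anion exchanger, read 11.88, 10.66 and 11.87, against 6.03 to 6.98. By contrast, Hba-a1 (mean 6.16 against 6.11) and Epb42 (6.84 against 6.84) hardly differed between wild-type positive and negative cells. The mean level of the erythroid list ran from 9.52 to 10.21 in wild-type positive, 6.02 to 7.36 in wild-type negative, 5.94 to 5.98 in mutant positive and 5.96 to 7.06 in mutant negative cells. Of 10 endothelial genes, 10 were higher in wild-type positive cells and 9 lower in mutant positive cells, with mean levels of 9.77 to 10.06, 6.51 to 6.56, 7.18 to 7.31 and 6.60 to 6.74 in the same order of groups. Between mutant positive and mutant negative cells, 2 of the 10 endothelial genes were higher and 0 lower, against 2.37% higher and 1.74% lower over genes. Of the 12 erythroid genes 0 passed there. The part of either cell type in the results was not tested.

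Globin readings were high on some negative arrays. Hbb-y, an embryonic beta-type globin, read 10.80, 5.59 and 11.94 in wild-type negative cells and 5.01, 11.55 and 4.71 in mutant negative cells. Hbb-bh1, another, read 10.05, 6.70 and 11.87, and 6.34, 10.51 and 6.10. On the negative arrays with high globin Alas2 read 5.35, 5.13 and 5.07, and on the others 4.99, 5.39 and 5.12. Slc25a37 read 9.11, 9.72 and 9.33 on the former and 9.44, 8.88 and 9.25 on the latter. These ranges overlap for both genes. On mutant negative array 2, Slc25a37 was the highest of its group. So were the brightest probe sets of Cpox (9.73, against 9.40 and 9.48), Tfrc (12.22, against 11.86 and 12.07) and, barely, Fech (9.68, against 9.67 and 9.55). The second Cpox probe set (9.37, against 8.53 and 8.85) and the second Tfrc probe set (9.91, against 8.80 and 8.90) were highest there too. Alas2 was the lowest of its group on that array. At their brightest probe sets so were Alad (9.45, against 9.97 and 10.25), Uros (8.88, against 9.13 and 9.06) and Urod (12.08, against 12.51 and 12.20). In wild-type negative cells Slc25a37 was highest on array 3 and lowest on array 1. Hba-x, the embryonic alpha-type globin, read 12.34 to 13.31 in wild-type positive cells and 6.50 to 9.23 elsewhere.

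**Figure D4:**
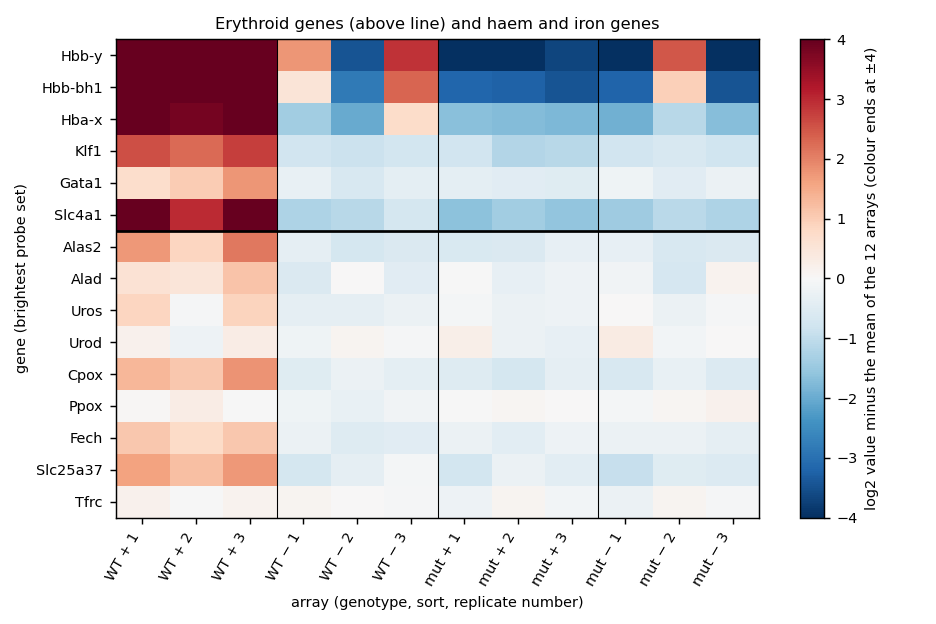
Heat map of 6 erythroid genes (above the line) and the 9 haem and iron genes on the 12 arrays (WT, wild type; mut, mutant; + and −, EYFP-positive and EYFP-negative cells), as the log2 value of the brightest probe set minus its mean over the arrays, with colour ending at ±4. Globin signal is high on wild-type negative arrays 1 and 3 and mutant negative array 2, where Alas2 reads 5.07 to 5.35.

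Other genes of haem and iron handling were counted by list, beside the share over all genes. Of 13 measured genes of haem synthesis and mitochondrial transport outside the 9, 2 were higher in wild-type positive cells and 0 lower, against 3.84% higher over genes. These were Abcb10, a mitochondrial transporter that binds Slc25a37 (1.15 ± 0.26 log2, adjusted p = 0.0277), and the porphyrin transporter Abcb6 (1.07 ± 0.23, adjusted p = 0.025). Tmem14c, a porphyrin carrier of the mitochondrion, read 10.50, 10.09 and 10.96 against 9.21, 9.86 and 9.92 and did not pass (adjusted p = 0.0833). Slc25a38, the mitochondrial glycine importer, differed by -0.11 (adjusted p = 0.886). In mutant against wild-type positive cells 0 of the 13 passed, against 3.16% higher and 3.11% lower over genes. Abcb10 differed by -0.30 there and Abcb6 by -0.49. The list's medians in the 2 comparisons were 0.00 and 0.18 log2.

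Of 24 genes of iron uptake, storage and export, 3 were higher in wild-type positive cells and 0 lower, against 3.84% higher and 2.65% lower over genes. Exoc6, an exocyst subunit that serves transferrin recycling in red cell precursors, read 10.90, 11.06 and 10.65 against 9.50, 9.45 and 8.97 (1.56 ± 0.22, adjusted p = 0.00192). Slc39a8, a carrier of zinc and iron, was higher by 1.92 ± 0.35 (adjusted p = 0.00862), and Ncoa4, the receptor that sends ferritin to the lysosome, by 0.86 ± 0.12 (adjusted p = 0.00174). In mutant positive cells 4 were lower than in wild-type positive cells and 0 higher, against 3.11% lower and 3.16% higher over genes. These were the same 3, Exoc6 by -2.18 ± 0.22, Slc39a8 by -2.34 ± 0.35 and Ncoa4 by -0.57 ± 0.12, and the iron oxidase Heph by -0.76 ± 0.19 (adjusted p = 0.0477). Exoc6 also passed the test of the genotype difference (-2.34 ± 0.31, adjusted p = 0.00325), the only one of the 24 to do so, against 1.27% below and 0.594% above 0 over genes. Between mutant fractions 1 of the 24, the metal reductase Steap2, was higher and 0 lower, against 2.37% higher and 1.74% lower over genes. The receptor Tfr2 differed by 0.10 (adjusted p = 0.721), the ferritin chain Fth1 by 0.43 (adjusted p = 0.146) and the iron exporter Slc40a1 by -0.57 (adjusted p = 0.551) in wild types.

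Of 15 genes of haem breakdown, export, transport and sensing, 4 were higher in wild-type positive cells and 0 lower, against 3.84% and 2.65% over genes. They were Blvrb, biliverdin reductase B (8.53, 7.97 and 9.82 against 6.19, 6.08 and 6.62, or 2.47 ± 0.40 log2), the haem-binding protein Hebp1 (2.15 ± 0.44), the reductase Blvra (1.19 ± 0.25) and the porphyrin exporter Abcg2 (0.76 ± 0.11, adjusted p = 0.00221). Against 3.11% lower and 3.16% higher over genes, 2 of them were lower in mutant than wild-type positive cells and 0 higher, Blvrb (-1.99 ± 0.40, adjusted p = 0.0168) and Hebp1 (-1.92 ± 0.44, adjusted p = 0.0346). Hmox1, the inducible haem oxygenase, differed by 0.13 in wild types (adjusted p = 0.714). Of 16 genes of iron-sulphur cluster assembly, which shares mitochondrial iron with haem, 0 passed in any of the 5 comparisons. The shares over genes were at most 3.84% higher and 3.11% lower in any of these. The median of the 16 was 0.13 log2 between wild-type fractions, against -0.02 over all genes, with Bola3 nearest the threshold (adjusted p = 0.114).

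Likeness was measured as the root mean square difference of 12 centred log2 values, as a description with no test. The values were not scaled, so the measure depends on the size of a change as well as its pattern. Genes that change in the same groups by a larger amount, such as Klf1 and Slc4a1, lie farther away by it. The 8 probe sets most like Alas2 were those of Ermap, Nrros, Asb17, Kcnn4, Tie1, Gja4, Tmem255a and Mmrn2, at 0.17 to 0.25 log2. Ermap encodes a red cell membrane protein, and Tie1, Gja4 and Mmrn2 are known from endothelium. For Slc25a37 the nearest were Asb17, Klf7 at 2 probe sets, Cpox, Gja4, Bmp2k, Redrum and Nos3, at 0.18 to 0.28 log2, so Cpox was the only other haem gene in either set. All points share the arrays and the contrast between wild-type positive cells and the rest.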

How the data were processed

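Amplified RNA was labelled with biotin, per the labels. The authors deposited log2 expression values for each probe set, and the submitters' processing notes name RMA as the tool. No version or settings of it were found in the labels. Values were used as deposited, without a filter. Of 45101 probe sets, 64 controls were left out, and 45037 entered 1 limma model of the 4 groups (limma 3.58.1, R 4.3.3; lmFit, contrasts.fit, eBayes; 8 residual degrees of freedom). The fit was checked on simulated data. P-values were adjusted by Benjamini-Hochberg over all probe sets within each of 5 contrasts, two-sided, with a threshold of 0.05.

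Members and lists (other haem synthesis and mitochondrial transport, iron handling, iron-sulphur assembly, haem breakdown and sensing, and markers of primitive erythroid, endothelial, yolk sac endoderm, cardiac, neural, epithelial, macrophage and megakaryocyte cells) were chosen with earlier results of these data known. All member probe sets are named, and from each list some fixed genes and up to 4 with the smallest p, with others where a count of 5 or fewer called for it. Lists use the brightest probe set of a gene. Some listed genes were not analysed here.

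Same-numbered positive and negative arrays of mutants deviated together from their group means (correlations across probe sets of 0.66, 0.41 and 0.52), and were read as pairs from the data. The main model did not use these pairs and treated all arrays as independent. Its standard errors, p-values and confidence intervals thus ignore the pairing, which entered only as an alternative. Alternatives comprised the probe sets fitted, normalization, the variance model, array weights, the groups fitted, replicate blocks and the removal of arrays.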

Additional observations from a re-analysis of the deposited data

Results flagged for a closer look

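The positive-negative difference differed between mutants and wild types, by limma's interaction term, at 6 member probe sets. In log2 units the mutant difference minus the wild-type difference was -1.40, -2.26 and -1.44 at 3 probe sets of Fech (adjusted p = 0.00129, 0.00325 and 0.00545), -1.79 at the brightest of Cpox (0.0038), -1.70 at Slc25a37 (0.0144) and -2.12 at Alas2 (0.0172). In each case the 3 wild-type positive arrays lay above the 3 wild-type negative arrays, and the mutant fractions overlapped or differed by at most 0.32 log2.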

How the results depend on the processing

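Of the 105 results for single probe sets (21 in each of 5 contrasts), 89 kept their side of the threshold under every alternative run, 8 lost a call and 8 gained one under some, and 0 called differences reversed. In wild-type positive against negative cells, 10 members were called. The count was 6 of 9 with only the brightest probe set of each gene or the mean of its probe sets, where fewer members are tested, 6 of 21 without both wild-type arrays numbered 1, and 6 to 9 without 1 array. In mutant against wild-type positive cells it was 5 of 9 with the mean of a gene's probe sets, and 7 to 10 without 1 array. For the interaction it was 5 to 7 without 1 array, and in the other contrasts 0 to 0.

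Over all probe sets, 2018 were called between wild-type fractions, 1272 to 2013 without 1 array (1272 without negative array 1 and 1303 without negative array 2), 962 without both arrays numbered 1 and 3252 with pairs as a random block. Between positive cells 1989 were called, 1304 to 2095 without 1 array (1304 without mutant positive array 1), 1303 without both arrays numbered 1 and 960 with only the groups compared. Between mutant fractions 1181 were called, 699 to 1191 without 1 array (699 without positive array 2, 757 and 715 without negative array 2 or 3), 565 with only the groups compared, 1848 with a replicate block of pairs and 1993 with pairs as a random block. Between negative cells 0 were called, and 0 to 1 without 1 array (1 without wild-type negative array 3 or mutant negative array 2). For the interaction 573 were called, 385 to 626 without 1 array, 878 with a replicate block of pairs and 1060 with pairs as a random block. The cause of these changes was not tested. In wild types the correlations of same-numbered arrays were 0.20, 0.07 and 0.17. The positive and negative wild-type arrays numbered 1 shared high Eif2s3y (10.81 and 11.23) and low Xist (10.33 and 8.19), unlike every other array. Whether same-numbered wild-type arrays are pairs was not tested. With a replicate block of pairs, 12 members and 3001 of all probe sets were called between wild-type fractions. With the replicate number as a block, 11 members were called between wild-type fractions and 11 between positive cells. Alas2 falls below the dim-signal minimum of 6 log2 and has no value there. Signal over background is not given and limits the dim probe sets.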

Other observations

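Steap2, a metal reductase, differed in the mutant sort comparison. It was higher in mutant positive than mutant negative cells (1.74 ± 0.30 log2, limma, adjusted p = 0.0118), the only 1 of the 24 iron genes to pass there, and 1.11 ± 0.30 higher in wild-type positive cells without passing (adjusted p = 0.0692). The difference between genotypes did not pass (0.62 ± 0.43, adjusted p = 0.74).

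Markers of other cell types are read against the share over all genes, which was 3.84% higher and 2.65% lower between wild-type fractions, 3.16% higher and 3.11% lower between positive cells, and 2.37% higher and 1.74% lower between mutant fractions. In mutant against wild-type positive cells, 6 of 7 cardiac genes were higher (median 1.81 log2), and 0 of 7 passed between wild-type fractions. Of 6 neural genes, 5 were lower in wild-type positive and 6 in mutant positive cells than in the matching negative cells. The 4 epithelial genes did not move together. Cdh1 and Epcam were lower in positive than negative cells of both genotypes, while Krt8 and Krt18 were higher in mutant than wild-type positive cells, and Krt8 was also higher in mutant positive than mutant negative cells. Macrophage genes passed in 0 of 6 cases in each comparison, and of 4 megakaryocyte genes 1, Itga2b, was higher in wild-type positive than negative cells (0.91 log2, adjusted p = 0.0246).

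Of 7 yolk sac endoderm genes, 1, Rbp4, was lower in wild-type positive than negative cells (-2.48 ± 0.61 log2, limma adjusted p = 0.044) and 0 higher. Afp read 4.29 to 4.34 against 9.34 to 10.67 there without passing (adjusted p = 0.0748). Mutant positive array 1 stood apart from its group, with Afp at 11.98 against 5.02 and 4.04 and a list mean of 9.72 against 6.31 and 6.17. Without that array, 8 of the 21 haem and iron probe sets were lower in mutant than wild-type positive cells, as with it. Over all 45037 probe sets 1304 were then called in this comparison, against 1989 with it. Between mutant fractions 0 of the 21 passed without it, and 933 of all probe sets did, against 1181 with it. The part of this array in the results was not tested.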
